A study of Mus musculus with 5 samples.

Results

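Genes of mitosis and of the G2 phase before it were followed through CD45+ immune cells of the thyroid of NOD mice, a strain prone to autoimmune disease. The 51 genes are most of a widely used G2M phase list, with cyclin A2 (Ccna2) added. Pimreg, Jpt1, Gas2l3 and Cbx5 of that list are not among the 51 and stand with other mitosis genes below. All 51 were among the 18767 genes of the deposited count table, which holds 10275 cells. Of these, 35 genes used mainly by dividing cells are called restricted here, and 16 that other cells also use, such as Hmgb2, Lbr and Ctcf, are called broad. NOD.WT mice of both sexes, 4 to 6 weeks old at the start, were injected intraperitoneally 2 times a week for 4 weeks. Immune checkpoint inhibition (ICI) was given as an anti-PD-1 antibody (clone RPM1-14) with an anti-CTLA-4 antibody (clone 9D9), at 10 mg/kg per dose, to 16 mice whose cells were pooled into 4 libraries, ICI 1 to ICI 4. Control antibodies of matched isotype (clones 2A3 and MPC11) were given to 10 mice whose cells were pooled into 1 library. How many mice went into each library is not given in the sources used here, so p-values measure only the spread between these libraries.

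A cell that commits to division passes through S phase, in which DNA is copied, and G2, in which cyclin-dependent kinase 1 is loaded with cyclins A and B. Its activation starts mitosis: chromosomes condense, kinetochores capture spindle microtubules, the anaphase-promoting complex destroys cyclin and securin, and the cell splits. The genes for this machinery are switched on late in the cycle by the MuvB, B-Myb and FoxM1 complexes, which act through a promoter element called the cell cycle homology region, together with the factor NF-Y, which binds CCAAT boxes. Lymphocytes are mostly quiescent and divide in bursts, either as developing thymocytes or after activation by antigen.

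The promoters show which members carry these elements. RefSeq promoters of build GRCm38.p6, from 250 bases before to 50 after the transcription start, were matched for 44 of the 51 genes. The common form of the cell cycle homology region was searched as TTTGAA. It was searched on both strands, and so were its rarer form and the CCAAT box. The 120 bases before the start are shown for 7 members, 5′ to 3′ on the gene's strand with motif matches in capitals, because they show repeated CCAAT boxes in 6 promoters, a homology element close to the start in 5 of these, and neither in Birc5:
Cdk1 (chr10:69352913-69353032, minus strand): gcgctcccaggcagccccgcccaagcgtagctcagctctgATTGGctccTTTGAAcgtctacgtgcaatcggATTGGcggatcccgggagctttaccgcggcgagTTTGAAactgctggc
Ccnb2 (chr9:70421555-70421674, minus strand): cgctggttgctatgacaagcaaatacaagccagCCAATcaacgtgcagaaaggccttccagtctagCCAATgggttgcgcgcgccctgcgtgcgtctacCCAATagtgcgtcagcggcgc
Cdc20 (chr4:118437344-118437463, minus strand): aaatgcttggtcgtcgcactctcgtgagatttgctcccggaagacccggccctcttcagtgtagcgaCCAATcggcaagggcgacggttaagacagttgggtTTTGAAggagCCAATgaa
Ube2c (chr2:164769809-164769928, plus strand): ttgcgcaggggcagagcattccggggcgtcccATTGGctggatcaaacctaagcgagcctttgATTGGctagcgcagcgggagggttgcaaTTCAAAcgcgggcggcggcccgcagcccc
Top2a (chr11:99024190-99024309, minus strand): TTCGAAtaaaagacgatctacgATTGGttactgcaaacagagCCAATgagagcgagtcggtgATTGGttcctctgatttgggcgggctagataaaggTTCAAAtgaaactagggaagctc
Hmgb2 (chr8:57511723-57511842, plus strand): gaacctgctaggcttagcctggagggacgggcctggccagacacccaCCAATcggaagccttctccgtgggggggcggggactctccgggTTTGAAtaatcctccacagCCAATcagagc
Birc5 (chr11:117849117-117849236, plus strand): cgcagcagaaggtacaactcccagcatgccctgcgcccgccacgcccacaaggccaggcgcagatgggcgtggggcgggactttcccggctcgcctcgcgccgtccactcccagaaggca

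The rarer form of the homology element has the letters TTCGAA and reads the same on both strands. Matches to different motifs may share bases. A CCAAT box on the other strand is printed as ATTGG, and the common homology element likewise as its reverse complement. A homology element was found in 35 of the 44 matched promoters (79.5%), against 21.7% of all 27025 genes with a promoter in the same window. A CCAAT box was found in 33 of 44 (75.0%), against 41.1% of all genes, and both were present in 29 of 44 (65.9%), against 9.65%. More than 1 CCAAT box was found in 28 of 44 (63.6%), against 13.3% of all genes. The restricted and broad members were alike in the homology element, with 23 of 29 (79.3%) and 12 of 15 (80.0%). Birc5, which encodes the chromosomal passenger survivin, had no match to either motif in the window. The lists of other cell cycle genes gave the element in 26 of 35 other mitosis genes (74.3%), in 4 of 19 S phase genes (21.1%) and in 0 of 9 genes of quiescence and cell cycle inhibition. A match is a description of letters and not a binding site.

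The libraries did not stand alike before any mitosis gene was examined. The libraries held 1523, 1219, 1163 and 5018 ICI cells and 1352 isotype cells, with medians of 1753, 2844, 3567, 4321 and 3621.5 UMIs (counted transcript molecules) per cell. ICI 2 and ICI 3 shared 140 cell barcodes, against 0 to 12 for the other pairs of libraries. Whether these are separate pools or lanes of 1 pool is not given in the sources used here, and counts of 4 ICI libraries below take them as separate. Every library expressed the leukocyte genes Ptprc, Coro1a and Laptm5 (2602 to 4376 CPM, the summed UMIs per 1000000 UMIs of the library or of the cells named). A list of 10 thymocyte genes, among them Rag1, Rag2, Ptcra and Dntt, summed to 648, 314, 360 and 1214 CPM in ICI 1 to 4 and to 1724 CPM in isotype, with 3 of the 10 genes at 0 in ICI 2 and in ICI 3 and none at 0 elsewhere. A list of 8 effector T cell genes ran the other way, with 1429, 3881, 4706 and 775 CPM in ICI 1 to 4 and 842 CPM in isotype. Red cell genes were at 1885 CPM in ICI 4 and 941 CPM in isotype, and at 6.09 CPM or less in ICI 1 to 3. ICI 4 thus stood nearer to isotype than to ICI 2 and ICI 3 in these 3 lists. The 10 macrophage genes went otherwise, with 2806, 5332, 3876 and 244 CPM in ICI 1 to 4 and 3179 CPM in isotype. Whether ICI 4 and isotype were prepared apart from ICI 1 to 3 is not given in the sources used here. With such a batch, a difference of ICI 1 to 3 from isotype could not be told apart from it. Only ICI 4 against isotype, 1 library each, would lie within it. Most levels below are given for each library, while most medians over lists and some fold changes are given for the groups only.

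The mitosis genes were concentrated in a small part of the cells. Cluster 5 of the authors' 17 clusters held 7.83% of cells and 23.3% of UMIs, and a median of 76.8% of the UMIs of the 51 members. Cluster 12 held 3.03% of cells, 6.57% of UMIs and a median of 12.4% of the members' UMIs. These and the following shares are of the libraries summed. ICI 4 supplied 204488 member UMIs and each other library 6793 to 49214, so the shares mostly describe ICI 4. Outside clusters 5 and 12 lay 842, 469, 453 and 6814 restricted UMIs in ICI 1 to 4 and 3675 in isotype. The restricted totals were 5058, 1438, 1443, 82263 and 19477 UMIs in the same order. The concentration was thus weakest in ICI 2 and ICI 3. Ccna2, which drives S phase and the entry to mitosis, had 85.2% of its UMIs in cluster 5, and the microtubule depolymerase gene Kif2c had 84.5%. The share in cluster 5 was lowest for the broad members G2e3 (34.3%), Rangap1 (42.3%) and Lbr (42.6%), and among the restricted members for Kif23 (35.1%), Hjurp (45.6%) and Cenpa (52.2%). Since the clusters were made from these genes among others, the contrast of a cluster with the rest is a description and was not tested.

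**Figure D1:**
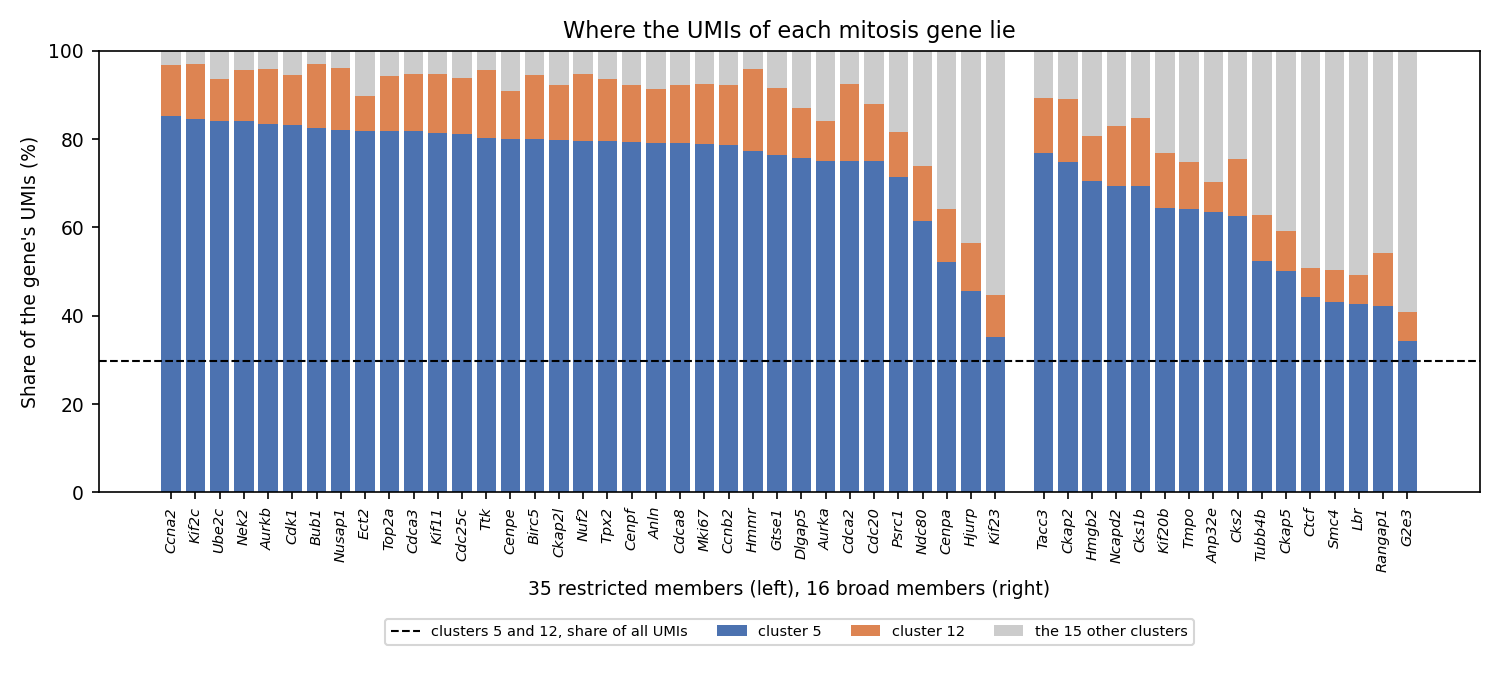
Share of each member's UMIs, in percent, that lay in cluster 5, in cluster 12 and in the other clusters, over all 5 libraries; the dashed line is the share of all UMIs held by clusters 5 and 12. Most restricted members lie almost wholly in clusters 5 and 12, while Kif23, Hjurp, Cenpa and the broad members on the right have large shares elsewhere.

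The summed restricted members reached a mean of 6576 ± 1281 CPM (SD, n = 4 libraries with at least 20 cells) in cluster 5 and 3372 ± 1432 CPM (SD, n = 3) in cluster 12. Cluster 5 held 7703 CPM in ICI 1, 4750 CPM in ICI 3, 6726 CPM in ICI 4 and 7123 CPM in isotype, so the groups overlapped. The next clusters were 16 (522 ± 277 CPM, SD, n = 2), 13 (430 ± 232 CPM, SD, n = 3) and 7 (416 ± 459 CPM, SD, n = 5), whose order lay within their spread. Cluster 10 was lowest, at 97.5 ± 33.0 CPM (SD, n = 5). After each cell was thinned to 1000 UMIs, clusters 5 and 12 were still the first and the second, with means of 7.89 and 2.70 restricted UMIs per cell, and no other cluster reached more than 0.463. The median depth was 13085 UMIs per cell in cluster 5 and 9406 in cluster 12.

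**Figure D2:**
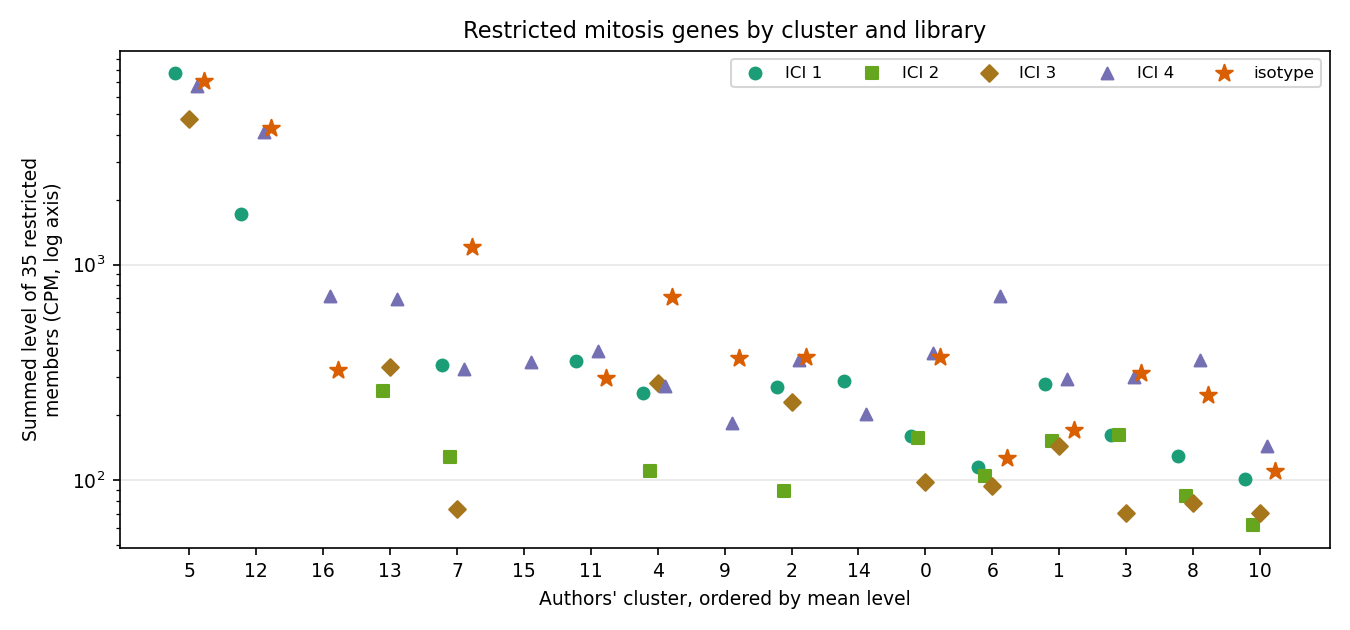
Summed level of the 35 restricted members in CPM (log axis) for each cluster and each library with at least 20 cells there; clusters are ordered by their mean. Clusters 5 and 12 stand above all others, ICI 1 is lowest in cluster 12 at 1722 CPM, and the isotype library stands out in cluster 7 at 1210 CPM.

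Both clusters expressed T cell genes, but they differed in thymocyte genes. The 8 T cell genes summed to 4031 to 5087 CPM in cluster 5 and 4582 to 5423 CPM in cluster 12. The thymocyte list summed to 2181 CPM in ICI 1, 2283 CPM in ICI 4 and 2288 CPM in isotype in cluster 5, but to 406 CPM in the 25 cells of ICI 3, with 5 of the 10 genes at 0. The effector list was at 4391 CPM in those ICI 3 cells and at 563, 54.3 and 31.8 CPM in cluster 5 of ICI 1, ICI 4 and isotype. In cluster 12 the thymocyte list was at 205 to 535 CPM. The same cluster number therefore held cells of different markers in different libraries.

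Every member was lower in cluster 12 than in cluster 5 on the average over the 3 libraries that had both, and 45 of the 51 were lower in each of these libraries. The median ratio of cluster 12 to cluster 5 was 0.51. Cdk1, the kinase of mitotic entry, was at 186, 218 and 242 CPM in cluster 5 of ICI 1, ICI 4 and isotype, and at 65.3, 116 and 90.4 CPM in cluster 12. Kif23, a kinesin of the cytokinesis midzone, was nearest to parity among the restricted members, with a ratio of 0.79 on the average and a higher level in cluster 12 in isotype (127 CPM in cluster 5 and 178 CPM in cluster 12). Rangap1, a broad member, was nearer still, at 0.90. The summed restricted level in cluster 5 was 4.47 times that of cluster 12 in ICI 1, 1.64 times in ICI 4 and 1.66 times in isotype, so ICI 1 stood apart. At 1000 UMIs per cell the ratios were 9.64, 1.86 and 2.28.

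Kif23 and a few other restricted members were not confined to these clusters. Outside clusters 5 and 12, Kif23 was at 19.1, 7.06, 8.54 and 93.3 CPM in ICI 1 to 4 and at 88.2 CPM in isotype. ICI 4 and isotype were thus high together and ICI 1 to 3 low. Kif23 made up 27.4% of the restricted UMIs outside clusters 5 and 12 in ICI 4 and 13.8% in isotype, against 5.54 to 8.43% in ICI 1 to 3. In cluster 0 the gene was at 172 CPM in ICI 4 and 200 CPM in isotype, and at 16.3, 5.34 and 16.4 CPM in ICI 1 to 3. In cluster 2 it was at 172 and 190 CPM in ICI 4 and isotype, above the levels of cluster 5 in the same libraries (126 and 127 CPM). At 1000 UMIs per cell, 8.83% of ICI 4 cells (exact 95% interval 7.99 to 9.73%) and 8.02% of isotype cells (6.51 to 9.76%) outside both clusters held a Kif23 UMI, against 0.639 to 1.86% in ICI 1 to 3. Without thinning these shares were 27.5% and 24.7% against 2.10 to 3.92%. Intervals here and below are Clopper-Pearson intervals and cover counting error only.

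The centromeric histone gene Cenpa showed the same split outside clusters 5 and 12, with 27.4, 23.1 and 18.0 CPM in ICI 1 to 3, 77.9 CPM in ICI 4 and 72.01 CPM in isotype. Ndc80, which encodes the kinetochore's microtubule coupler, was at 6.73, 2.99 and 4.15 CPM in ICI 1 to 3, 23.4 CPM in ICI 4 and 26.2 CPM in isotype. The condensin gene Smc4, a broad member, was at 190, 75.0 and 70.7 CPM in ICI 1 to 3, 286 CPM in ICI 4 and 261 CPM in isotype. For Smc4, ICI 1 thus lay between the low and the high libraries. Cdk1 was not split in this way, with 3.26 to 4.39 CPM in the 4 ICI libraries and 12.03 CPM in isotype. ICI 4 and isotype were also the libraries high in red cell genes, and the part of this in Kif23, Cenpa, Ndc80 and Smc4 was not tested.

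Over all cells, ICI was set against isotype to ask whether treatment changed the level of the mitosis genes. The members were lower in ICI 1, ICI 2 and ICI 3 than in isotype and nearly equal to isotype in ICI 4. The 51 genes summed to 3195, 1761, 1692 and 6332 CPM in ICI 1 to 4 and to 6053 CPM in isotype. The restricted members summed to 1142, 373, 329 and 2547 CPM in ICI 1 to 4 and to 2396 CPM in isotype. The ICI mean was 0.46 times isotype for the restricted and 0.59 times for the broad members, and neither difference passed (exact two-sided permutation over libraries, p = 0.4 for each, smallest possible 0.2). In summed cells, fewer dividing cells and less RNA per dividing cell cannot be told apart.

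Tested gene by gene with edgeR's quasi-likelihood test and Benjamini-Hochberg adjustment, no member passed the threshold of 0.05 (0% of the 12659 genes tested were called in either direction, and 516 genes but 0 members had an unadjusted p under 0.05). DESeq2 called 38 genes and no member. The members' median log2 fold change was -1.07, with 49 of 51 negative, against a median of 0.02 and 48.9% negative over all genes tested. On the scale of the test, CPM corrected by TMM factors, 15 of the 51 members lay below isotype in all 4 ICI libraries, against 22.5% of all genes, and none above in all 4 (23.2% of all genes). In CPM as printed here 14 did, against 19.1%, and Lbr is the gene that differs. Counts of this kind below are on the scale of the test. With ICI 1 to 3 summed as 1 library the median was -0.57 (48 of 51 negative, no call). Without ICI 4 the median was -1.91, and 2 members, Cenpa and Hmgb2, passed as lower among 210 genes called. ICI 4 alone gave a median log2 ratio of 0.05 with 35 of 51 positive, computed with 2 CPM added and not tested.

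**Figure D3:**
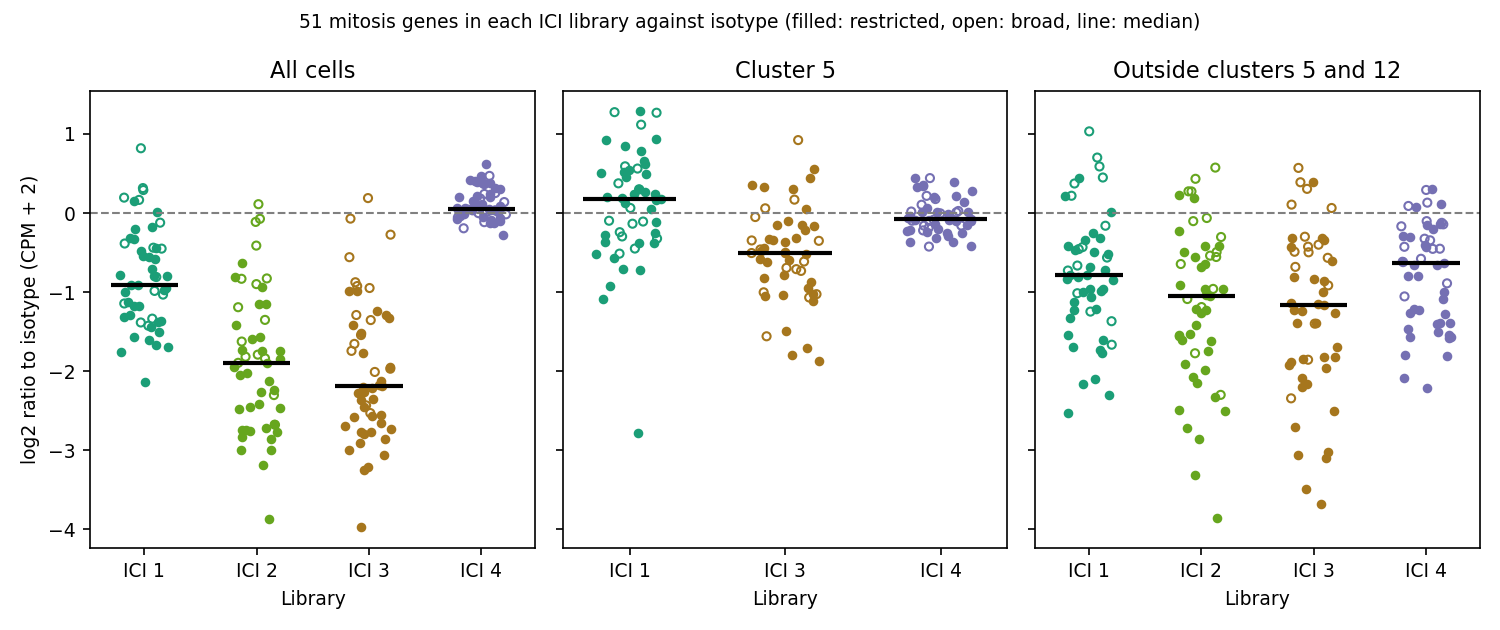
The log2 ratio to isotype of each member (CPM with 2 added) in each ICI library, over all cells, in cluster 5 and outside clusters 5 and 12; each point is a gene, filled for restricted and open for broad members, and lines are medians. Over all cells the median of ICI 4 lies at 0.05 and that of ICI 3 at -2.19, and in cluster 5 the ICI 1 median is above 0.

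Among the cyclin and CDK genes, Ccna2 was at 60.5, 15.8, 10.3 and 133 CPM in ICI 1 to 4 and at 115 CPM in isotype (log2 fold change -1.12, SE 1.30, edgeR adjusted p = 0.82). Hmgb2, a chromatin-bending protein gene, was at 562, 424, 438 and 1507 CPM in ICI 1 to 4 and at 1472 CPM in isotype (-1.07, SE 0.79, edgeR adjusted p = 0.82). Both were low in ICI 1 to 3 and high in ICI 4 and isotype, so the groups overlapped. The ubiquitin-conjugating enzyme gene Ube2c, which serves the anaphase-promoting complex, was at 72.4, 20.5, 18.9 and 269 CPM in ICI 1 to 4 and at 327 CPM in isotype (-1.82, SE 1.40, edgeR adjusted p = 0.82). It was below isotype in all 4 ICI libraries and had the lowest fold change of the 51 genes. Top2a, the topoisomerase that untangles chromosomes, was at 152, 50.3, 40.2 and 323 CPM in ICI 1 to 4 and at 249 CPM in isotype. Mki67, the proliferation marker Ki-67, was at 216, 38.6, 42.7 and 279 CPM in ICI 1 to 4 and at 215 CPM in isotype. For both genes ICI 4 was above isotype.

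Of the other groups over all cells, the 4 mitotic kinase genes had a median log2 fold change of -1.04 and the 6 kinetochore and centromere genes -1.12. The 4 genes Aurkb, Birc5, Cdca8 and Cdca2, listed together here as chromosomal passenger, had -1.06. The 14 spindle and microtubule genes had -1.14 and the 3 cytokinesis genes -1.04. The 3 nuclear envelope genes, Tmpo, Lbr and Rangap1, were nearer to 0 with -0.16. The members with a positive fold change were the ubiquitin ligase gene G2e3 (0.21) and Rangap1 (0.10), both broad. Lbr, the lamin B receptor gene, was at 224, 184, 164 and 192 CPM in ICI 1 to 4 and at 199 CPM in isotype, so that ICI 1 to 3 were not low for it as they were for Ccna2.

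The lists of other cell cycle genes moved as follows, again with 0 calls. All 42 other mitosis genes had a negative log2 fold change over all cells (median -0.89), and 8 of 42 lay below isotype in every ICI library, against the 22.5% of all genes. Of 23 S phase genes 22 were negative (median -0.54), with 0 below in every library, as were 12 of 14 genes of the MuvB, FoxM1 and E2F regulators (median -0.63). Of 11 inhibitors and quiescence genes 10 were negative (median -0.46). Cdkn1a, the p21 inhibitor gene, had a log2 fold change of -1.61 (SE 0.60, edgeR adjusted p = 0.82), and it is named after its values were seen. The 4 other mitosis genes of highest level were Jpt1, Ube2s, Smc2 and Pttg1. Securin, encoded by Pttg1, was at 33.0, 34.7, 28.1 and 84.4 CPM in ICI 1 to 4 and at 97.4 CPM in isotype. Jpt1 was at 313, 284, 284 and 309 CPM in ICI 1 to 4 and at 344 CPM in isotype.

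Within cluster 5, where most mitosis UMIs of the summed libraries lay, the median difference of the members from isotype was smaller than over all cells. The clustering used these genes among others, so a smaller difference inside a cluster can follow from it. This comparison used ICI 1, ICI 3 and ICI 4, since ICI 2 had 18 cells there. The median log2 fold change was -0.19, with 38 of 51 negative, against 0.02 and 48.7% over all 9494 genes tested. No member passed edgeR's threshold (0.0316% of genes were called lower and 0% higher). The members below isotype in all 3 libraries numbered 26 (22.7% of all genes were), and those above in all 3 numbered 7 (19.2% of all genes were). In CPM as printed, without TMM factors, 17 lay below in all 3 libraries (16.7% of all genes) and 8 above (23.5%). With mixed cells, those holding both T cell and myeloid transcripts, removed, the median was -0.41 with 40 of 51 negative and no call. The median was 0.17 in ICI 1 alone, -0.50 in ICI 3 alone and -0.07 in ICI 4 alone. ICI 3 held the cells with few thymocyte transcripts, and without ICI 3 the median was -0.09 with 29 of 51 negative.

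Ube2c was at 495, 319 and 786 CPM in ICI 1, ICI 3 and ICI 4 and at 1050 CPM in isotype within cluster 5 (a log2 difference of -1.06 with SE 0.54, edgeR adjusted p = 1.0). No ICI library reached the isotype level. Birc5 was at 372, 391 and 434 CPM and at 532 CPM in isotype (-0.51, SE 0.40, edgeR adjusted p = 1.0). Cdc20, the activator of the anaphase-promoting complex, was at 140, 97.7 and 132 CPM and at 170 CPM in isotype. Hmgb2 was at 2974, 2555 and 3804 CPM and at 4247 CPM in isotype. These 4 genes were lower in each of the 3 libraries, without a call. The members above isotype in every library were Ttk, Hjurp, Cdca2, Kif2c, Anln, Ncapd2 and Rangap1. Ncapd2, a condensin gene, was at 210, 108 and 131 CPM and at 95.8 CPM in isotype (0.53, SE 0.46, edgeR adjusted p = 1.0). Mki67 was at 1542, 586 and 765 CPM and at 631 CPM in isotype, with ICI 1 high and ICI 3 below isotype.

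Most S phase genes had a positive log2 fold change in cluster 5. Of 23 S phase genes 17 were positive (median 0.08, none called) and 6 negative, against 48.7% negative over all genes. Above isotype in every library were 7 of the 23, against 19.2% of all genes. A list of 8 early members (Cdk1, Top2a, Mki67, Ccna2, Nusap1, Birc5, Smc4 and Kif11) was set beside 8 late members (Cdc20, Ccnb2, Cenpa, Cenpe, Cenpf, Aurka, Ube2c and Hmmr). The late list was 0.378, 0.430 and 0.486 times the early list in cluster 5 of ICI 1, ICI 3 and ICI 4, and 0.633 times in isotype. In cluster 12 it was 0.323 and 0.462 times in ICI 1 and ICI 4, and 0.566 times in isotype. The isotype library had the highest ratio in both clusters, but it is 1 library, and the ratio was described and not tested.

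Single cells of cluster 5, thinned to 1000 UMIs, were compared within a library for the same lists. Spearman's rho between late members and S phase genes was -0.33 over 546 cells of ICI 4 and -0.43 over 153 cells of isotype. Between early and late members it was 0.32 and 0.37, and between early members and S phase genes -0.04 and 0.07. These are descriptions across cells that share a library and a fixed depth, from sparse counts.

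In cluster 12 ICI 1 and ICI 4 were set against isotype. The median log2 fold change of the 46 members that passed the filter on low counts was -0.45 (39 of 46 negative, against 48.7% of 6932 genes tested), and none was called (0.188% of genes were called higher and 0.245% lower). With all 51 members and no filter, 38 were negative, with a median of -0.40. Members below isotype in both ICI libraries numbered 27 of the 46 (33.5% of all genes were), and those above in both numbered 3 (33.6%). ICI 1 alone gave a median of -1.23 and ICI 4 alone -0.09. Hmgb2 was at 719 CPM in ICI 1, 2031 CPM in ICI 4 and 2272 CPM in isotype, which places ICI 4 near isotype and ICI 1 far below.

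Outside clusters 5 and 12 most members had a lower level in the ICI libraries than in isotype, without a call. Cdc25c, Ttk, Kif2c, Psrc1 and Gtse1 did not pass the filter on low counts. Of the 46 others 41 had a negative log2 fold change (48.5% of 12585 genes had) with a median of -1.46, and without the filter 46 of 51 did, with the same median. No member was called by edgeR (0% of genes were called higher and 0.00795% lower), with a lowest adjusted p of 0.55. The unadjusted edgeR p was under 0.05 for 19 of the 46 members and for 905 of the 12585 genes. With mixed cells removed it was so for 4 of 41 members and 576 of 12344 genes. Without cluster 7 it was so for 4 of 41 members and 729 of 11908 genes. DESeq2 called 1 member, Top2a (-1.66, SE 0.47, adjusted p = 0.047), and without ICI 4 edgeR called Tpx2, Cks1b and Cenpa. The level was below isotype in all 4 ICI libraries for 35 of the 46 (25.4% of all genes were) and above in all 4 for G2e3 and Rangap1 (23.4%).

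Birc5 was at 4.57, 3.26, 0.976 and 6.94 CPM in ICI 1 to 4 and at 36.1 CPM in isotype outside both clusters (log2 fold change -3.20, SE 0.75, edgeR adjusted p = 0.57). Top2a was at 23.4, 15.2, 12.2 and 15.7 CPM and at 48.3 CPM in isotype (-1.64, SE 0.34, edgeR adjusted p = 0.55). Ube2c was at 12.6, 2.99, 4.39 and 13.6 CPM and at 70.1 CPM in isotype. For these 3 genes every ICI library was far below isotype outside both clusters, ICI 4 included. Clusters 0, 1, 3, 4, 6 and 9 differed for Top2a and Ube2c, with 3 of 4 ICI libraries above isotype. Top2a was at 22.7, 20.5, 15.3 and 11.99 CPM there in ICI 1 to 4 and at 12.2 CPM in isotype. Ube2c was at 8.62, 3.48, 4.86 and 8.14 CPM and at 4.503 CPM in isotype. Birc5 stayed below in all 4 (1.36, 2.61, 1.12 and 4.59 CPM, isotype 8.36 CPM). These isotype levels rest on 19, 7 and 13 UMIs in this order. Of the isotype Ube2c UMIs outside both clusters, 17.4% came from 1 cell.

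The isotype library stood apart in cluster 7. There the restricted members summed to 343, 128, 73.8 and 327 CPM in ICI 1 to 4 and to 1210 CPM in isotype. Cells of cluster 7 that held both a T cell transcript (Cd3d, Cd3e or Cd3g) and a myeloid transcript (Lyz2, C1qa, C1qb, Csf1r or Cd68) numbered 92 of 129 in isotype and had a median of 14006.5 UMIs and a restricted level of 1340 CPM. The other 37 isotype cells of the cluster had a median of 4758 UMIs and 339 CPM. In ICI 1 to 4 the mixed cells of the cluster were at 528, 148, 90.02 and 498 CPM and the others at 127, 125, 69.7 and 90.2 CPM, so isotype was highest in both kinds of cell. The median log2 fold change outside clusters 5 and 12 was -0.83 when all such mixed cells were removed and -0.63 when cluster 7 was left out, with 41 members tested in each. In the thymocyte-like clusters 2 and 11 the median was -0.19 over the 14 members that passed the filter. Of these 8 were negative (51.1% of all genes were), 2 lay below isotype in all 4 ICI libraries (20.1%) and 0 above in every one (10.1%). In clusters 0, 1, 3, 4, 6 and 9 the median was -0.18 over 32 members. Of these 18 were negative (48.2% of all genes were), 11 lay below isotype in all 4 (25.4%) and 7 above (24.9%). No member was called in either set, where 0% and 0% of genes were called higher and 0.0321% and 0% lower.

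Cells with several restricted members at once were counted as a share of each library. Such a count cannot separate the number of dividing cells from the level in them, because a lower level also leaves fewer members detected. A cell passed this mitotic gate when, thinned to 1000 UMIs, it held a UMI of at least 3 of the 35 restricted members. The gate left out 303, 101, 159 and 33 ICI cells and 21 isotype cells of lower depth. It was passed by 66 of 1220 cells (5.41%), 14 of 1118 (1.25%), 15 of 1004 (1.49%) and 536 of 4985 (10.8%) in ICI 1 to 4, and by 155 of 1331 (11.6%) in isotype. All 4 ICI libraries were below isotype, though the exact 95% intervals of ICI 4 (9.91 to 11.6%) and isotype (9.97 to 13.5%) overlapped. The difference of the means was -6.92 percentage points (exact two-sided permutation p = 0.2, the smallest that 4 libraries against 1 allow). Without thinning it was -12.3 points. With a gate of at least 2 members it was -7.59 points (exact two-sided permutation p = 0.6), and ICI 4 (14.8%) was then above isotype (14.3%). Exactly 3 members were found in 16, 2, 3, 89 and 27 of the passing cells, and exactly 2, just under the gate, in 29, 11, 4, 203 and 35 cells of ICI 1 to 4 and isotype.

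Inside cluster 5 the gate was passed by 77.4% of cells in ICI 1, 77.8% in ICI 4 and 77.8% in isotype, a difference of -0.15 points (exact two-sided permutation p = 1, smallest possible 0.333). ICI 2 and ICI 3 had too few cells of that depth there. Cells were placed in cluster 5 by these genes among others, so a like share there can follow from the clustering. It does not show that treatment left the share unchanged. In cluster 12 it was passed by 6 of 30 cells in ICI 1, by 42.8% in ICI 4 and by 40.9% in isotype. Outside both clusters it was passed by 1.06, 0.183, 0.205 and 0.450% of cells in ICI 1 to 4 and by 1.59% in isotype (exact two-sided permutation p = 0.2). With mixed cells removed the difference went from -1.11 to -0.40 points (exact two-sided permutation p = 0.4), and ICI 1 (0.860%) was then above isotype (0.817%). Of the 18 isotype cells that passed there, 11 lay in cluster 7, and 10 of these were mixed cells. The natural killer-like cluster 8 had 0 of 26, 0 of 92, 0 of 90 and 2 of 167 passing cells in ICI 1 to 4 and 0 of 76 in isotype. Its median depth was 1839 to 5554 UMIs.

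**Figure D4:**
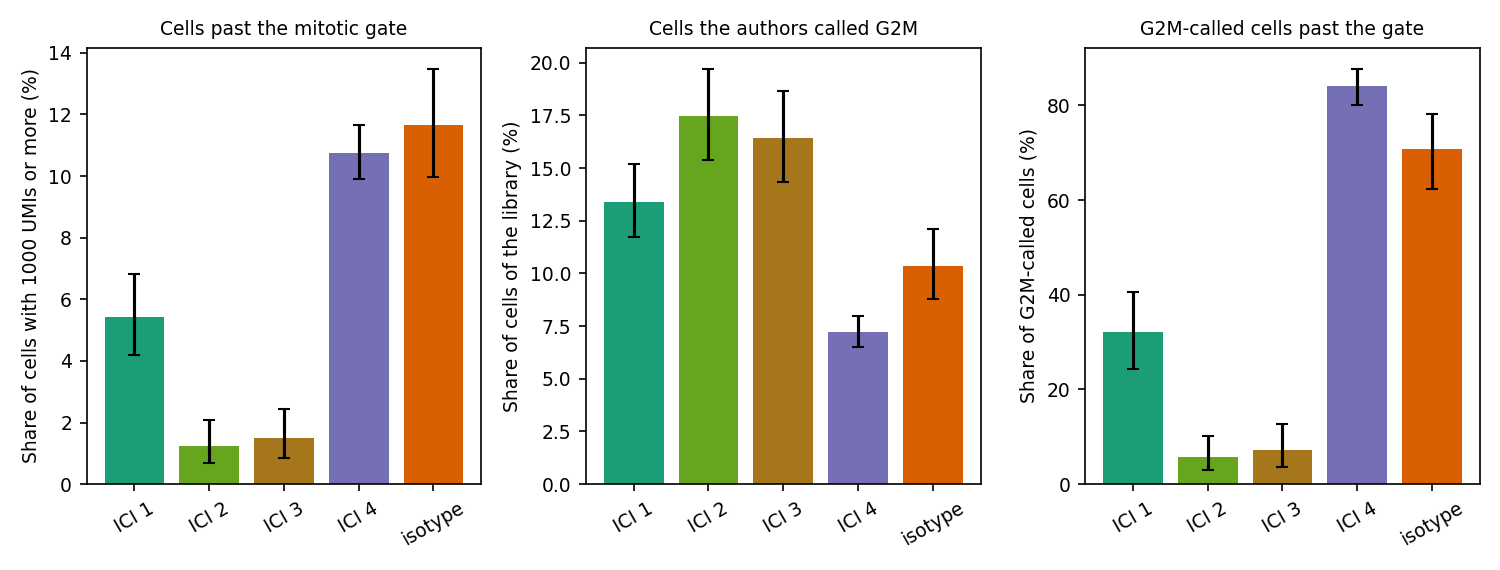
Share of cells past the mitotic gate, share of cells that the authors' table calls G2M, and share of those G2M-called cells that pass the gate, in percent for each library; bars are shares and error bars are exact 95% intervals. ICI 2 and ICI 3 have the lowest gate shares and the highest shares of G2M calls, and 5.82% and 7.28% of their G2M-called cells pass the gate.

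The gate cells of the libraries differed in thymocyte transcripts. A UMI of Rag1, Rag2, Ptcra or Dntt, genes of receptor recombination and early T cell development, was found in 25 of 66 gate cells of ICI 1, 0 of 14 of ICI 2, 0 of 15 of ICI 3, 435 of 536 of ICI 4 and 130 of 155 of isotype. At 1000 UMIs per cell the counts were 18, 0, 0, 232 and 78, while cells outside the gate held such a UMI in 2.08, 0.0906, 0.202, 5.87 and 18.8% of cases. In cluster 8, which should lack these genes if its natural killer-like name holds, 0 to 3.95% of cells did. The median depth of gate cells was 3877.5, 7532.5, 3612 and 14205 UMIs in ICI 1 to 4 and 10818 UMIs in isotype.

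**Figure D5:**
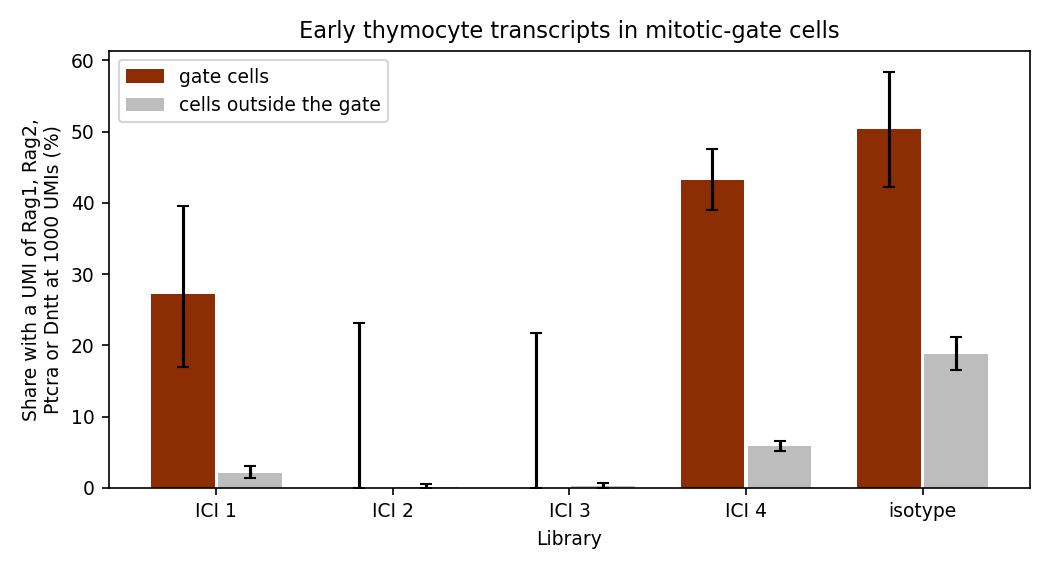
Share of cells, in percent, that held a UMI of Rag1, Rag2, Ptcra or Dntt after thinning to 1000 UMIs, for gate cells and for cells outside the gate in each library; error bars are exact 95% intervals. The share is 43.3% in ICI 4 and 50.3% in isotype gate cells, 27.3% in ICI 1, and 0 of 14 and 0 of 15 in ICI 2 and ICI 3.

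When all cells with a UMI of those 4 genes were left out, the gap between the groups narrowed to -0.73 points (exact two-sided permutation p = 0.8, 3 of 4 ICI libraries below isotype). With Cd8b1 added to the genes that removed a cell, the gate was passed by 3.07, 1.22, 1.28 and 2.12% of cells in ICI 1 to 4 and by 3.11% in isotype, a difference of -1.18 points (exact two-sided permutation p = 0.2). Both removals used unthinned counts, in which a deeper cell is more likely to show such a UMI. The 4 genes removed 37.9% of gate cells in ICI 1, 81.2% in ICI 4 and 83.9% in isotype, and none in ICI 2 or ICI 3. After thinning, 27.3, 43.3 and 50.3% of the gate cells of ICI 1, ICI 4 and isotype held such a UMI. The part of depth in the narrowing was not tested.

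The authors' phase calls ran against the levels of these genes. The share of cells called G2M was 13.4, 17.5, 16.4 and 7.21% in ICI 1 to 4 and 10.4% in isotype, so that ICI 2 and ICI 3, with the lowest mitosis levels, had the highest shares. Of the cells called G2M, 39.7, 47.9 and 50.8% in ICI 1 to 3 held no UMI of any restricted member, against 1.10% in ICI 4 and 4.29% in isotype. The median number of restricted members in a G2M-called cell was 1, 1, 0 and 27 in the ICI libraries in order and 23.5 in isotype. The gate was passed by 32.1, 5.82, 7.28 and 84.2% of the G2M-called cells in ICI 1 to 4 and by 70.8% in isotype. The median G2M score of these cells was 0.04, 0.04, 0.03 and 0.68 in the same order, and 0.61 in isotype. Scores of this kind are made from a gene list such as the present one, so the calls are no independent measure, and G2M-called cells had a median of 1358 UMIs in ICI 1 and 13346.5 in ICI 4.

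Across 65 sums of a cluster in a library, the genes outside the list whose log2 level (10 CPM added) was most like the summed members were Mxd3 (Pearson's r = 0.92), Sgo1 (0.92), Kif4 (0.91), Pbk (0.91), Spc24 (0.91), Pimreg (0.91), Rrm2 (0.91), Depdc1a (0.90), Neil3 (0.90) and Esco2 (0.90). The sums share libraries and depth, so the values rank genes and carry no test. Sgo1 protects centromeric cohesion and Spc24 is a kinetochore subunit, while Rrm2 makes deoxynucleotides in S phase. In cluster 5 Rrm2 was at 1159, 720 and 1017 CPM in ICI 1, ICI 3 and ICI 4 and at 850 CPM in isotype.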

How the data were processed

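Whole-number UMI counts per gene and cell, with a cell table of library, cluster, phase call, mitochondrial percent and cell cycle score, were used as deposited. Per the labels, 10x 5′ libraries were made from sorted CD45+ cells, and the submitters' processing notes name Cell Ranger, Seurat and build mm10; cell filters are not given in the sources used here. The deposited score values describe phase calls, and the deposited mitochondrial percent only describes libraries. Total depth was 3858251 to 32296759 UMIs per library. For ICI 1 to 3 the labelled cell numbers are 1688, 1234 and 1178, and the table holds 1523, 1219 and 1163.

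Counts were summed per library over each set of clusters with at least 20 cells. The main test was edgeR 4.0.16 (quasi-likelihood, TMM, filterByExpr, Benjamini-Hochberg over all genes tested); it takes the isotype library to vary as the ICI libraries do. On simulated counts it recovered most large changes and few moderate ones, so a missing call does not show equal levels. Alternatives were DESeq2 1.42.0, RLE scaling, testing unfiltered genes, leaving out 1 ICI library at a time, summing ICI 1 with ICI 2 and ICI 3, and removing shared barcodes or mixed cells; the ratios of single libraries, the removal of cluster 7, of each gene's highest cell, of recombination-gene cells and of Kif23, and the order of libraries in CPM without TMM factors, were added after seeing the data. Clusters are the authors' and keep their numbers. Marker lists were summed here for clusters 5 and 12, gate cells and all cells only. The names used for other clusters were not checked by them. No doublet caller was run. The members and lists were chosen with earlier results of these data known. Any member may be named; the others are up to 4 per list by level and the 10 genes most like the members.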

Additional observations from a re-analysis of the deposited data

Results flagged for a closer look

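Among 62 sets of 4 ICI values examined, 5 had a highest library whose gap to the next exceeded Dixon's 95% limit. Chance alone would flag about 1 in 20 independent sets. These sets come from the same 4 libraries and are not independent, so that rate is no yardstick for the number flagged. ICI 4 was the high library each time. Over all cells Cenpa was at 143 CPM in ICI 4 against 29.0 to 46.7 CPM in the other ICI libraries, Tubb4b, a beta-tubulin gene, was at 241 CPM against 134 to 148 CPM, and Hmgb2 was at 1507 CPM against 424 to 562 CPM. Among cells the authors called S, 39.2% of ICI 4 cells passed the mitotic gate, against 0.781 to 7.17%. Among cells called G1, 0.222% did in ICI 4 (9 of 4054 cells) and 0 in the other ICI libraries, of 776, 545 and 491 cells. With 3 values at 0 any value above 0 would pass the limit, and the exact 95% upper bounds of these 3 libraries (0.474, 0.675 and 0.748%) hold the value of ICI 4, so this share is not shown to differ. ICI 4 was also deeper than these libraries, and the part of depth was not tested.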

How the results depend on the processing

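No paired analysis was possible because the labels give no replicate numbers shared between ICI and isotype. Of the 206 alternative values of the main comparisons, 186 kept their direction and their side of the threshold, or moved by less than the spread. For the medians the spread was the SD of the single-library medians, which are themselves among the 206. A change of sign within that spread counted as kept, so the count is not a measure of robustness. For single libraries against isotype (2 CPM added), the members' median log2 ratio over all cells was -2.19 in ICI 3 and 0.0547 in ICI 4. In cluster 5 it was 0.17 in ICI 1. Outside clusters 5 and 12 it was -0.84 in ICI 1 and -0.72 in ICI 4, and it was -0.83 with mixed cells removed and -0.63 without cluster 7. It was -0.79 in ICI 3 for the thymocyte-like clusters, and 0.18 in ICI 1, -0.0142 in ICI 3 and -0.0342 in ICI 4 for clusters 0, 1, 3, 4, 6 and 9. The thymocyte-like median also changed sign, to 0.01 with no filter, 0.05 with shared barcodes removed, 0.08 in ICI 1 and 0.0082 in ICI 4. Members past the threshold, 0 throughout in the main analysis, numbered 2 over all cells, 3 outside clusters 5 and 12 and 1 (Kif23) in clusters 0, 1, 3, 4, 6 and 9 without ICI 4, and 1 outside clusters 5 and 12 with DESeq2. Within cluster 5 the difference of the gate share was 3.21 points with at least 2 members and 0.70 points with Kif23 left out. Leaving out 1 ICI library gave -0.358 to 0.061 points there and -20.9 to 1.88 points in cluster 12, each time turning without ICI 1. The ratio of cluster 5 to cluster 12 rose from 2.59 to 4.59 with thinning. Counts of all genes called ranged from 0 to 210 over all cells (0 in the main analysis), 0 to 203 in cluster 5 (3), 3 to 55 in cluster 12 (30), 0 to 291 outside both (1), 2 to 83 in the thymocyte-like clusters (2) and 0 to 270 in clusters 0, 1, 3, 4, 6 and 9 (0), with the highest counts without ICI 4 except in cluster 12, where no filter gave 55. The cause was not tested. With 1 isotype library no share can reach a permutation p below 0.2.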

Other observations

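Some broad members had levels in the thymocyte-like cluster 11 near those of cluster 5. Lbr, the lamin B receptor gene, was at 717 CPM in ICI 1, 356 CPM in ICI 4 and 370 CPM in isotype in cluster 11. In cluster 5 of the same libraries it was at 457, 350 and 351 CPM. It was thus higher in cluster 11 in each library, but widely so only in ICI 1. Cluster 11 of ICI 1 held 21 cells with a median of 879 UMIs. Smc4 was at 493, 506 and 581 CPM in cluster 11 of these libraries and at 651, 614 and 528 CPM in cluster 5. Ctcf, the chromatin insulator gene, was at 314, 317 and 276 CPM in cluster 11 and at 336, 367 and 363 CPM in cluster 5. G2e3 averaged 86.8 CPM in cluster 11, but this rests on ICI 1 (224 CPM), with 27.2 CPM in ICI 4 and 8.89 CPM in isotype. Hmgb2 behaved otherwise: after clusters 5 and 12 it averaged 531 CPM in cluster 1, with 370, 499, 492 and 781 CPM in ICI 1 to 4 and 510 CPM in isotype. Among quiescence genes, Btg1, which restrains proliferation, averaged 228 CPM in cluster 5 and 452 CPM in cluster 12 over the libraries with both, and 971 CPM in the rest of the cells of those libraries.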
